A study of Mus musculus with 10 samples.

Results

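The genes of 3 families of conjugating enzymes were followed from embryonic stem cells to hepatocyte-like cells and adult hepatocytes: UDP-glucuronosyltransferases (Ugt), sulfotransferases (Sult) and soluble glutathione S-transferases (Gst). The members were all genes with a symbol of these families, a letter or number code included, on an array feature annotated with exactly 1 gene symbol. Such a feature, a transcript cluster, pools the probes for a transcribed locus, and where a symbol has several the brightest over all arrays is used, although each member here had 1. The rule gave 50 members among 22180 genes tested, namely 11 Ugt, 21 Sult and 18 Gst genes. A further 14 family genes, such as those of the Ugt1a locus, Gsta1 and Gsta2, occur only on clusters that carry several symbols and are not members.

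Transcript levels came from 10 arrays of mouse RNA in a series on how the natural killer cell receptor NKG2D reads stem-cell-derived hepatic cells. Undifferentiated embryonic stem cells were measured on 4 arrays, hepatocyte-like cells differentiated from embryonic stem cells on 3, and adult hepatocytes with liver as their source on 3. All 3 groups share a mouse strain whose name holds C.FVB, the transgene Tg(CAG-luc, GFP)L2G85Chco and FathJ. In the transgene the CAG promoter drives luciferase and a green fluorescent protein, so the control cells hold it too. Every sample is labelled below passage 20, the adult hepatocytes included. The labels give neither age nor sex, nor how the cells were differentiated. The sample titles call the replicates biological, without saying whether they came from separate cultures or animals. P-values therefore measure the spread between these samples, and what unit that spread stands for is not known.

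Conjugation makes drugs, hormones and waste products water-soluble so that they can leave the body in bile or urine. Ugt enzymes sit in the endoplasmic reticulum and transfer a sugar from a UDP-sugar, most often glucuronic acid. Sult enzymes are cytosolic and transfer sulfate from PAPS (3'-phosphoadenosine 5'-phosphosulfate), and Gst enzymes join electrophiles to the tripeptide glutathione. Adult liver is the main site of all 3 reactions.

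The labels were checked against marker genes. The mean log2 level of 14 hepatocyte markers was 11.9 to 12.0 on the adult arrays, 4.69 to 4.76 on the stem cell arrays and 5.32, 5.79 and 6.86 on hepatocyte-like replicates 1 to 3. Of these markers 14 rose in adult hepatocytes and 5 in hepatocyte-like cells, both against stem cells. Of 12 stem cell markers 11 fell in hepatocyte-like cells. Markers of other cell types rose there too, namely 7 of 9 of fetal liver and endoderm (mean levels 8.45 to 8.94, against 5.67 to 5.87 in stem cells), 6 of 10 of stellate cells and fibroblasts (6.80 to 8.74, against 5.12 to 5.38) and 3 of 6 of cholangiocytes (7.08 to 7.73, against 5.76 to 5.89). Hepatocyte-like replicate 3 stood apart, with the highest mean of hepatocyte markers and the lowest of stellate cell and fibroblast markers (6.80, against 8.74 and 7.88 in replicates 1 and 2). It also had the highest mean of stem cell markers in its group, 5.56 against 5.03 and 4.97 (9.04 to 9.20 on the stem cell arrays), with Nanog at 7.12 against 5.08 and 5.09 in replicates 1 and 2. Results that rest on it are given with and without it. In adult hepatocytes 7 of 9 macrophage markers and 5 of 8 endothelial markers also rose, and 1 of each fell (mean levels 6.29 to 6.57 and 7.83 to 8.04 on the adult arrays, 4.76 to 4.89 and 6.0 to 6.25 on the stem cell arrays). There 5 of 9 fetal liver and endoderm markers rose as well, and of 10 stellate cell and fibroblast markers 3 rose and 1 fell. Of the endothelial markers 2 rose and 3 fell in hepatocyte-like cells. Of all genes tested, 11.0% rose and 15.6% fell in adult hepatocytes, against 8.61% and 7.35% in hepatocyte-like cells. The part of all these other cell types in the results below was not tested.

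Most members were higher in adult hepatocytes than in both cultured kinds. Against stem cells, 36 of 50 members rose in adult hepatocytes (background: 11.0% of all genes tested) and 5 fell (background 15.6%). A gene was called, and is said to rise or fall, at a Benjamini-Hochberg adjusted p under 0.05 over all 22180 genes (limma) together with a change of 1 or more on the log2 scale. The median difference was 3.51 over the members and 0.05 over all genes. In bulk samples, fewer cells of a type and less RNA per cell cannot be told apart.

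In hepatocyte-like cells no Ugt or Sult gene rose, and the changes lay mainly in the Gst family. Against stem cells 2 members rose (background 8.61%) and 8 fell (background 7.35%), while 40 were not called, and the median difference was -0.05 against -0.01 over all genes. Against adult hepatocytes 0 members were higher (background 13.9%) and 39 were lower (background 9.12%), with a median of -3.86 against -0.04 over all genes. The 3 comparisons share their arrays, so their counts are not independent of each other. Of the 36 members that rose in adult hepatocytes, 27 had a mean under a log2 level of 5.5, taken here as low, in both cultured kinds: 8 of 9 Ugt, 15 of 15 Sult and 4 of 12 Gst genes. Of the 27, Sult1e1 and Sult2a4 were under that level in adult hepatocytes as well, which leaves 25. The array medians over all clusters, 4.91 to 5.07, are themselves under that level. The share of all genes that rose from under it was not computed, so these counts are not set against a background. A difference from such a low level is uncertain in size, since the deposited table gives no background call for single clusters.

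**Figure D1:**
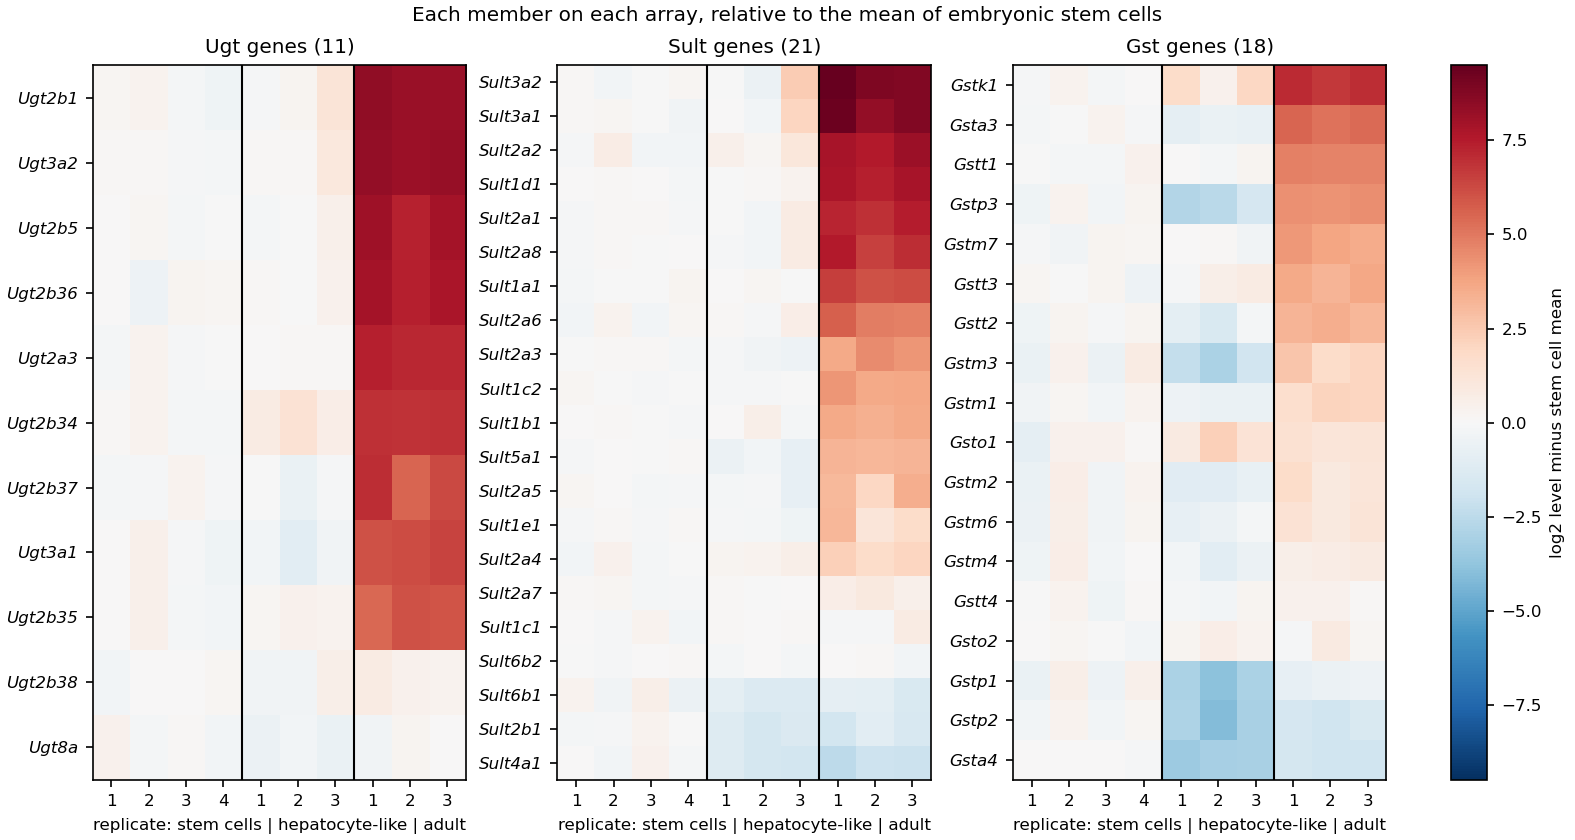
Each row is a member and each column an array (stem cells, hepatocyte-like cells and adult hepatocytes, parted by lines), and the colour gives the log2 level minus the member's mean over the stem cell arrays. The 36 members that rose in adult hepatocytes are red in the last 3 columns, and in the Gst panel Gstp1, Gstp2, Gstp3, Gsta4 and Gstm3 are blue in the hepatocyte-like columns.

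The heat map of all members shows the families in turn. Of the 11 Ugt genes, 9 rose in adult hepatocytes, 0 changed in hepatocyte-like cells, and the family's median difference in adult hepatocytes was 6.91, the highest of the 3 families. Ugt2b1, which glucuronidates steroids and phenols, read 4.40, 4.56, 4.04 and 3.80 on the stem cell arrays, 4.05, 4.44 and 5.43 on the hepatocyte-like arrays and 12.60, 12.37 and 12.43 on the adult arrays. It rose by 8.27 ± 0.29 in adult hepatocytes (log2 difference ± SE, adjusted p = 1.17e-10, limma). Every adult array lay far above all 7 cultured ones, and of the hepatocyte-like arrays replicate 3 alone exceeded the stem cells.

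Ugt3a2 belongs to a subfamily that uses UDP-sugars other than UDP-glucuronic acid. It read 2.56, 2.55, 2.36 and 2.27 in stem cells, 2.52, 2.56 and 3.46 in hepatocyte-like cells and 10.80, 10.60 and 10.70 in adult hepatocytes (8.26 ± 0.22, adjusted p = 1.33e-11). Ugt3a1, its neighbour, read 4.23, 4.67, 4.11 and 3.79, then 3.91, 3.23 and 3.88, and then 10.25, 10.38 and 10.66 (6.23 ± 0.23, adjusted p = 2.10e-10). In both genes adult and cultured arrays did not overlap, and the Ugt3a2 level of hepatocyte-like replicate 3 again stood above the rest of its group.

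The remaining Ugt2 genes act on steroids, bile acids and xenobiotics with overlapping preference. Ugt2b5 read 2.26, 2.39, 2.04 and 2.22 in stem cells, 2.05, 2.21 and 2.68 in hepatocyte-like cells and 10.26, 9.55 and 10.16 in adult hepatocytes (7.76 ± 0.21, adjusted p = 1.45e-11). Ugt2b36 read 2.55, 1.98, 2.74 and 2.67, then 2.58, 2.44 and 2.90, and then 10.36, 9.85 and 10.26 (7.67 ± 0.21, adjusted p = 1.78e-11). In both genes the cultured kinds overlapped each other and the adult arrays stood apart. Ugt2a3 read 2.52, 3.00, 2.52 and 2.63 in stem cells, 2.68, 2.75 and 2.76 in hepatocyte-like cells and 10.06, 9.86 and 9.83 in adult hepatocytes (7.25 ± 0.16, adjusted p = 6.08e-12).

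Ugt2b37 varied more among adult arrays than its neighbours. It read 10.25, 8.78 and 9.54 there, 3.10, 3.15, 3.62 and 3.17 in stem cells and 3.25, 2.62 and 3.12 in hepatocyte-like cells, and it was lower by -6.53 ± 0.31 in hepatocyte-like than in adult cells (adjusted p = 3.10e-09). Ugt2b34 came closest to a rise in hepatocyte-like cells. Its levels were 4.91, 5.17, 4.60 and 4.59 in stem cells, 5.57, 6.16 and 5.46 in hepatocyte-like cells and 11.73, 11.67 and 11.77 in adult hepatocytes. All 3 hepatocyte-like arrays exceeded all 4 stem cell arrays, but the difference of 0.91 ± 0.20 (adjusted p = 0.0039) missed the minimum of 1, and without hepatocyte-like replicate 3 it passed at 1.05 (adjusted p = 0.0035). Ugt2b35 also rose in adult hepatocytes, by 5.82 ± 0.21. Ugt2b38 stayed under the low level everywhere (group means 2.29 to 2.85), and Ugt8a, which galactosylates ceramide for myelin lipids, had group means of 5.08 to 5.58. Neither was called in any comparison. By the RefSeq annotation of GRCm38.p6, the Ugt2 members lie in a run on chromosome 5 with Ugt2a1 and Ugt2a2, followed by Sult1b1, Sult1d1 and Sult1e1 and with no other protein-coding gene between them. Genes of such a run are close in sequence, and probes may read more than 1 of them.

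The sulfotransferases held the largest adult differences of all members. Of 21 Sult genes 15 rose and 3 fell in adult hepatocytes, with a family median of 3.54, whereas in hepatocyte-like cells 0 rose and 3 fell. Sult3a1 and Sult3a2, adjacent genes on chromosome 10, belong to a subfamily that sulfates amines and is known as predominant in female mouse liver. Sult3a2 read 2.83, 2.44, 2.65 and 2.84 on the stem cell arrays, 2.67, 2.13 and 5.07 on the hepatocyte-like arrays and 12.13, 11.53 and 11.47 on the adult arrays. Sult3a1 read 2.51, 2.57, 2.34 and 2.07, then 2.40, 2.10 and 4.41, and then 11.66, 10.70 and 11.18. Their adult differences were 9.02 ± 0.52 (adjusted p = 1.44e-08) and 8.81 ± 0.44 (adjusted p = 3.90e-09). In hepatocyte-like cells replicates 1 and 2 lay within or below the stem cell range and replicate 3 well above it, and the mean differences, 0.60 ± 0.52 (adjusted p = 0.469) for Sult3a2 and 0.60 ± 0.44 (adjusted p = 0.383) for Sult3a1, were not called. The pair are close copies, so probes may read both genes.

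Hydroxysteroid sulfotransferases of the Sult2a group, which sulfate bile acids and steroids, rose in 7 of 8 cases. Sult2a2 read 2.85, 3.69, 2.70 and 2.69 in stem cells, 3.46, 3.18 and 4.05 in hepatocyte-like cells and 10.81, 10.53 and 11.13 in adult hepatocytes (7.84 ± 0.28, adjusted p = 1.32e-10). Sult2a1 read 2.15, 2.31, 2.30 and 2.15, then 2.18, 1.94 and 3.00, and then 9.44, 9.18 and 9.67 (7.20 ± 0.23, adjusted p = 5.23e-11). Sult2a8, a bile acid sulfotransferase of mouse liver, read 2.58, 2.80, 2.66 and 2.72, then 2.57, 2.44 and 3.50, and then 10.22, 9.21 and 9.72. In each of the 3 genes adult arrays were far above all cultured arrays and hepatocyte-like replicate 3 was the highest of its group. Sult2a8 was lower by -6.88 ± 0.29 in hepatocyte-like than in adult cells (adjusted p = 8.70e-10), and Sult2a6 by -4.89 ± 0.28 (adjusted p = 1.89e-08). Sult2a6 read 2.36, 2.99, 2.37 and 2.78 in stem cells, 2.76, 2.51 and 3.28 in hepatocyte-like cells and 8.34, 7.47 and 7.42 in adult hepatocytes. Sult2a3, Sult2a4 and Sult2a5 rose by 4.09 ± 0.20, 2.0 ± 0.19 and 2.83 ± 0.29, while Sult2a7 (0.71 ± 0.16, adjusted p = 0.0029) missed the minimum difference with group means of 2.41 to 3.12.

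The 8 Sult2a genes stand side by side on chromosome 7, and the promoters of the members were searched for binding motifs of liver and stress factors. RefSeq promoters (GRCm38.p6, 250 bases before to 50 after each start) were found for 43 of the 50 members, 53 promoters in all. The core of the HNF1 motif, GTTAATNAT, was in 5 of them (9.43%), against 0.801% of all 32851 promoters in the table, counting both strands. The 5 were Sult2a3, Sult2a4, Sult2a5, Sult2a6 and Sult1d1. The Sult2a promoters among these 5 are 53.0% to 75.9% identical to each other over windows whose annotated starts differ in distance from the motif. They belong to adjacent genes of 1 group, so their matches are not taken as independent. The searched promoters of Sult2a8 held no HNF1 core. No RefSeq promoter was found for Sult2a1, Sult2a2 and Sult2a7, which were therefore not searched. The part up to 120 bases before each start is shown because it carries the shared motif, which is in capitals, and whose first base is at -51, -107, -28, -71 and -79 from the annotated start in that order. It lies at chr7:14123049-14123168 (minus strand), chr7:13989589-13989708 (minus), chr7:13623847-13623966 (plus), chr7:14254871-14254990 (minus) and chr5:87569007-87569126 (minus).
Sult2a3: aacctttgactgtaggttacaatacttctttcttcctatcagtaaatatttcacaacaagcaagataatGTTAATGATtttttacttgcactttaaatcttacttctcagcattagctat
Sult2a4: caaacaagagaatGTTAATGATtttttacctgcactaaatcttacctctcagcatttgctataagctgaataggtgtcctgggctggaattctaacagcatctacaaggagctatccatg
Sult2a5: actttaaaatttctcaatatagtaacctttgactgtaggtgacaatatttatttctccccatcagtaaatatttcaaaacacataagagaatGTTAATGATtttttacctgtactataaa
Sult2a6: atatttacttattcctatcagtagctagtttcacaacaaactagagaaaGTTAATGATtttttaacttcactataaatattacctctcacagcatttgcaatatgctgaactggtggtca
Sult1d1: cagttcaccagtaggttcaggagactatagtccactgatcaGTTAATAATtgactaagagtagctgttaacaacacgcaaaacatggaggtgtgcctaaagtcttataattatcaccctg

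A match is a description of the letters and not a site. The TATA box, TATAAA, was in 11 of the 53 promoters (20.8%, against 13.6% of all), and the xenobiotic response element, TTGCGTG, was in 1, that of Sult1d1 (1.89%, against 1.16% of all).

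Among the phenol and amine sulfotransferases of the Sult1 group, 5 of 6 rose in adult hepatocytes. Sult1d1, which sulfates dopamine and other monoamines, read 2.80, 2.87, 2.86 and 2.60 in stem cells, 2.75, 2.91 and 3.12 in hepatocyte-like cells and 10.53, 10.19 and 10.63 in adult hepatocytes (7.67 ± 0.16, adjusted p = 6.08e-12). Sult1a1, the main phenol sulfotransferase, read 5.06, 5.18, 5.21 and 5.45, then 5.28, 5.39 and 5.20, and then 11.79, 11.30 and 11.45 (6.29 ± 0.16, adjusted p = 1.33e-11). In neither gene did an adult array come near a cultured one, and the cultured kinds overlapped each other. The estrogen sulfotransferase Sult1e1 was uneven among adult arrays, at 6.03, 4.03 and 4.63, against 2.79, 2.98, 2.74 and 3.01 in stem cells and 2.74, 2.72 and 2.49 in hepatocyte-like cells. It rose by 2.02 ± 0.35 (adjusted p = 3.45e-04) although its adult mean of 4.90 is itself low, and its adult arrays spanned 2.0, the widest span of any member. Sult1b1, Sult1c2 and Sult5a1 rose by 3.54 ± 0.18, 3.85 ± 0.17 and 3.21 ± 0.16. Sult1c1 and Sult6b2 were called in no comparison, with group means of 4.07 to 4.24 and 3.92 to 4.03.

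The sulfotransferases that were highest in stem cells fell in both other kinds. Sult4a1, known from brain and without an established substrate, read 6.42, 6.10, 6.82 and 6.16 in stem cells, 5.18, 4.71 and 4.65 in hepatocyte-like cells and 3.88, 4.39 and 4.36 in adult hepatocytes. It fell by 1.53 ± 0.22 in hepatocyte-like cells (adjusted p = 1.69e-04) and by 2.17 ± 0.22 in adult hepatocytes (adjusted p = 3.09e-06). Sult2b1, which sulfates cholesterol, read 5.79, 5.89, 6.30 and 5.90, then 4.73, 4.27 and 4.62, and then 4.25, 4.93 and 4.47, and fell by 1.43 ± 0.20 and by 1.42 ± 0.20 (adjusted p = 1.62e-04 and 6.98e-05). In both genes all stem cell arrays lay above all others. Sult6b1 read 5.22, 4.50, 5.43 and 4.26 in stem cells, 3.89, 3.56 and 3.58 in hepatocyte-like cells and 3.97, 3.91 and 3.40 in adult hepatocytes. Its fall of 1.18 ± 0.27 in hepatocyte-like cells (adjusted p = 0.0052) is at low levels throughout, and without stem cell replicate 3 the difference was -0.98 and no longer called.

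Adult liver sets some of these genes by sex, so genes known for that were examined beside them. Xist, the RNA that silences an X chromosome in female cells, read 10.17, 10.38 and 10.06 on the adult arrays, 4.20, 3.75 and 3.90 on the hepatocyte-like arrays and 4.23, 4.26, 4.62 and 4.52 on the stem cell arrays. The Y-linked genes Eif2s3y, Kdm5d and Uty read 2.84 to 3.87 on the adult arrays and 2.80 to 3.73 on the cultured ones, and none was called in any comparison. Of the other measured genes of the lists, 8 of 8 known to be higher in female mouse liver rose in adult hepatocytes (background 11.0%). Their mean levels were 10.4 on each adult array and 3.87 to 4.12 on the stem cell arrays. Of 8 known to be higher in males 5 rose (background 11.0%), with mean levels of 6.35 to 6.98 on the adult arrays and 3.68 to 4.0 on the stem cell arrays. That mean covers a split. On the adult arrays Slco1a1 read 11.12 to 11.49 and Cyp7b1 9.60 to 10.17. Cyp2d9 read 3.26 to 3.81 there, Cyp4a12a 3.56 to 4.57 and Cyp4a12b 4.83 to 5.32, and these did not rise. The part of sex in the adult levels of the Sult3a and Sult2a genes was not tested.

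The glutathione transferases behaved least alike. In adult hepatocytes 12 of 18 rose and 2 fell, with a family median of 1.58, and in hepatocyte-like cells 2 rose and 5 fell, with a family median of -0.59. All 5 Gst genes that fell in hepatocyte-like cells were also lower there than in adult hepatocytes, and no member outside this family was called lower in hepatocyte-like cells than in both other kinds. Sult5a1 read 4.43, 4.71 and 4.21 in hepatocyte-like cells, below every other array, but its difference from stem cells of -0.55 ± 0.16 (adjusted p = 0.0168) missed the minimum of 1. The family is described by class, beginning with pi.

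**Figure D2:**
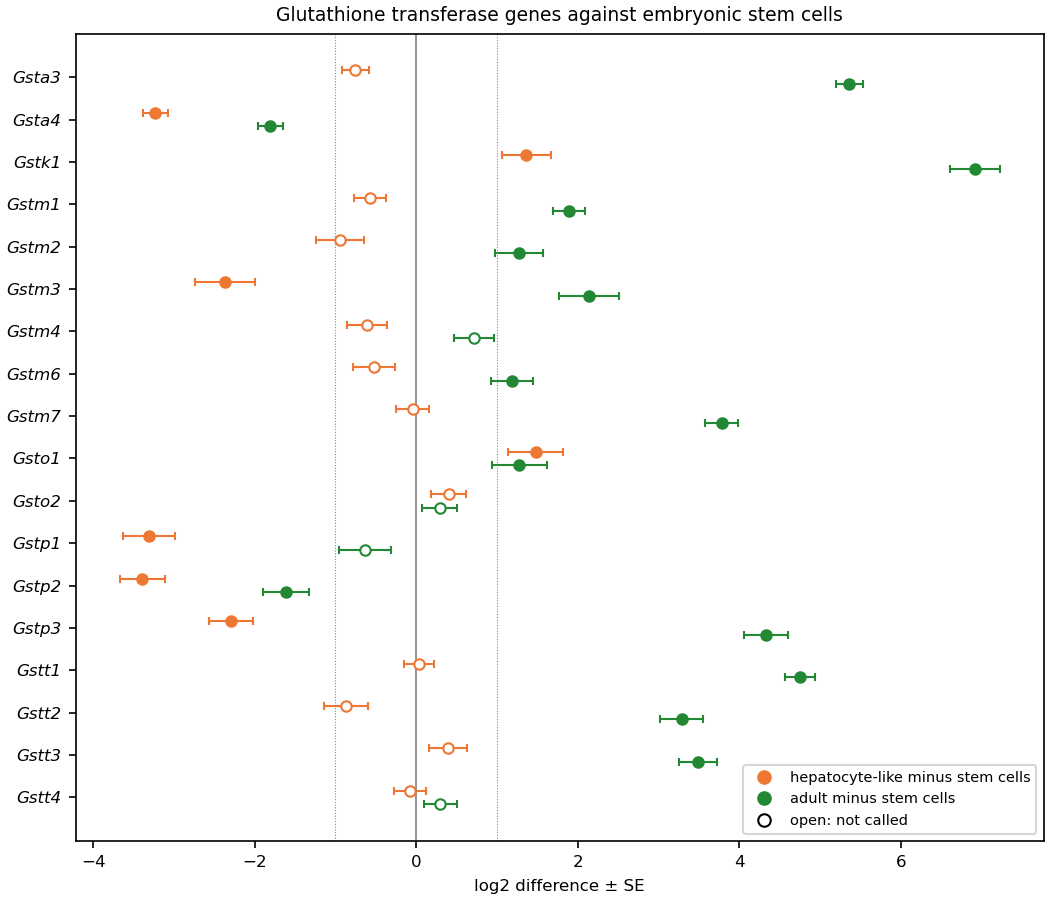
Points give the log2 difference from embryonic stem cells of each Gst gene, with its standard error, for hepatocyte-like cells (orange) and adult hepatocytes (green), and filled points were called. Gstp3 and Gstm3 lie left of 0 in hepatocyte-like cells and right of 0 in adult hepatocytes, while Gstk1 and Gsto1 lie right of 0 in both.

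The pi class detoxifies reactive carbonyls and binds stress kinases, and its 3 genes fell together in hepatocyte-like cells but not in adult hepatocytes. Gstp1 read 10.47, 11.69, 10.66 and 11.62 on the stem cell arrays, 8.12, 7.18 and 8.10 on the hepatocyte-like arrays and 10.30, 10.53 and 10.60 on the adult arrays. Gstp2 read 10.79, 11.40, 10.75 and 11.24, then 8.14, 6.89 and 7.93, and then 9.48, 9.18 and 9.63. Hepatocyte-like arrays lay below all others in both genes, replicate 2 lowest, and adult Gstp1 overlapped with stem cells where adult Gstp2 did not. Gstp1 fell by 3.31 ± 0.32 in hepatocyte-like cells (adjusted p = 7.41e-06) and Gstp2 fell by 3.39 ± 0.28 (adjusted p = 1.97e-06), about 9.93-fold and 10.5-fold. In adult hepatocytes Gstp2 fell by 1.61 ± 0.28 (adjusted p = 3.79e-04), while the Gstp1 difference of -0.64 ± 0.32 was not called (adjusted p = 0.139, 95% interval -1.33 to 0.06). Against adult hepatocytes, hepatocyte-like cells were lower by -2.67 ± 0.34 for Gstp1 (adjusted p = 4.07e-05) and by -1.78 ± 0.30 for Gstp2 (adjusted p = 4.04e-04).

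Gstp3 shared the fall but went the other way in adult cells. It read 8.08, 8.84, 8.20 and 8.76 in stem cells, 5.71, 5.94 and 6.89 in hepatocyte-like cells and 12.81, 12.73 and 12.85 in adult hepatocytes. It fell by 2.29 ± 0.27 in hepatocyte-like cells (adjusted p = 4.34e-05) and rose by 4.33 ± 0.27 in adult hepatocytes (adjusted p = 3.97e-08). The 3 groups did not overlap. The 3 genes are neighbours on chromosome 19, and their upstream windows are shown because Gstp3 rose in adult hepatocytes and Gstp1 and Gstp2 did not. Over the promoter window Gstp1 and Gstp2 are 76.6% identical, against 51.2% for Gstp1 and Gstp3 and 45.8% for Gstp2 and Gstp3. The capitals mark the longest run that Gstp1 and Gstp2 share in the 120 bases before their starts, 34 bases, against 8 bases for either with Gstp3. The windows lie on the minus strand of GRCm38.p6 at chr19:4037913-4038032, chr19:4042222-4042341 and chr19:4059448-4059567. As the transcribed copies are close too, probes for Gstp1 and Gstp2 may share signal.
Gstp1: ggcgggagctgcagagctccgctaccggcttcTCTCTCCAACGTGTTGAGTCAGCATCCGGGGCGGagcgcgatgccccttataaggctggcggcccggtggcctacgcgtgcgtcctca
Gstp2: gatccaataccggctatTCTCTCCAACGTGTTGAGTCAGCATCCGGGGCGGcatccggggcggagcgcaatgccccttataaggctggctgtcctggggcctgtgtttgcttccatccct
Gstp3: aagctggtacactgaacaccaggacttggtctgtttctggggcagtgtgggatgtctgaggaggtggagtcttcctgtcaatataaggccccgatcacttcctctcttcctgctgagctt

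The alpha class split. Gsta4, which clears the lipid peroxidation product 4-hydroxynonenal, was highest in stem cells at 12.23, 12.19, 12.21 and 12.05, lowest in hepatocyte-like cells at 8.68, 9.03 and 9.11, and between them in adult hepatocytes at 10.48, 10.31 and 10.30. It fell by 3.23 ± 0.15 in hepatocyte-like cells (adjusted p = 2.02e-08) and fell by 1.81 ± 0.15 in adult hepatocytes (adjusted p = 6.38e-07), and no arrays of different kinds overlapped. Gsta3, which detoxifies aflatoxin epoxide in mouse liver, read 5.22, 5.37, 5.75 and 5.34 in stem cells, 4.54, 4.76 and 4.70 in hepatocyte-like cells and 10.96, 10.60 and 10.79 in adult hepatocytes. It rose by 5.36 ± 0.17 in adult hepatocytes (adjusted p = 4.50e-11), and in hepatocyte-like cells its difference of -0.75 ± 0.17 (adjusted p = 0.0040) missed the minimum although all arrays lay below those of stem cells. Its promoter is shown since it and that of Gstm7 were the 2 of 53 (3.77%, against 12.4% of all promoters) with the core of the antioxidant response element, TGACNNNGC, through which the factor NRF2 acts. The element, in capitals, starts at -121 from the annotated start, and the stretch lies at chr1:21240454-21240573 (plus strand).
Gsta3: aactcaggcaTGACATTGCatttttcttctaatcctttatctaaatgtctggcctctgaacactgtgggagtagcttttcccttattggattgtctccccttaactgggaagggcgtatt

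The 6 mu class genes, which stand together on chromosome 3 and have near-identical copies among them, leaned down in hepatocyte-like cells and up in adult hepatocytes. In hepatocyte-like cells 1 fell and the median difference was -0.59, and in adult hepatocytes 5 rose with a median of 1.58. Gstm3 read 6.42, 7.43, 6.46 and 7.83 in stem cells, 4.75, 4.02 and 5.23 in hepatocyte-like cells and 9.66, 8.80 and 9.07 in adult hepatocytes. It fell by 2.37 ± 0.37 (adjusted p = 3.81e-04) and rose by 2.14 ± 0.37 (adjusted p = 4.04e-04), with no overlap between kinds. Gstm1 read 7.14, 7.66, 7.21 and 7.78, then 6.99, 6.81 and 6.83, and then 9.01, 9.53 and 9.46, so that its hepatocyte-like arrays lay just below those of stem cells (-0.57 ± 0.20, adjusted p = 0.0469, under the minimum of 1). Gstm7 read 5.19, 4.97, 5.57 and 5.49 in stem cells, 5.37, 5.44 and 4.98 in hepatocyte-like cells and 9.44, 9.02 and 8.80 in adult hepatocytes (3.78 ± 0.21, adjusted p = 9.37e-09). Only the adult arrays of Gstm7 stood apart, since both cultured kinds overlapped. Gstm2 and Gstm6 rose in adult hepatocytes by 1.27 ± 0.30 and 1.18 ± 0.26, Gstm4 did not reach the minimum (0.71 ± 0.25), and all 6 mu genes were lower in hepatocyte-like than in adult cells (-4.51 to -1.32). The Gstm2 difference between hepatocyte-like and stem cells was -0.94 ± 0.30 (adjusted p = 0.0315), not called, and -1.07 and called without hepatocyte-like replicate 3.

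Kappa and omega genes were the members that rose in hepatocyte-like cells. Gstk1, found in mitochondria and peroxisomes, read 4.64, 5.09, 4.59 and 4.80 in stem cells, 6.50, 5.19 and 6.75 in hepatocyte-like cells and 11.84, 11.47 and 11.80 in adult hepatocytes. It rose by 1.36 ± 0.31 in hepatocyte-like cells (adjusted p = 0.0043) and by 6.92 ± 0.31 in adult hepatocytes (adjusted p = 1.14e-09), with hepatocyte-like replicate 2 hardly above the stem cell range. Gsto1, a thioltransferase that also reduces dehydroascorbate, read 6.99, 8.23, 8.25 and 7.93, then 8.72, 10.09 and 9.17, and then 9.27, 9.0 and 9.10. It rose by 1.48 ± 0.34 (adjusted p = 0.0049) and by 1.28 ± 0.34 (adjusted p = 0.0079), and the difference between hepatocyte-like and adult cells was 0.20 ± 0.36 (95% interval -0.58 to 0.99), so a difference of that size cannot be told from none. Its stem cell replicate 1 was the lowest array, and without it the adult difference was 0.99 and not called. The neighbouring Gsto2 was not called, with group means of 4.35 to 4.75.

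**Figure D3:**
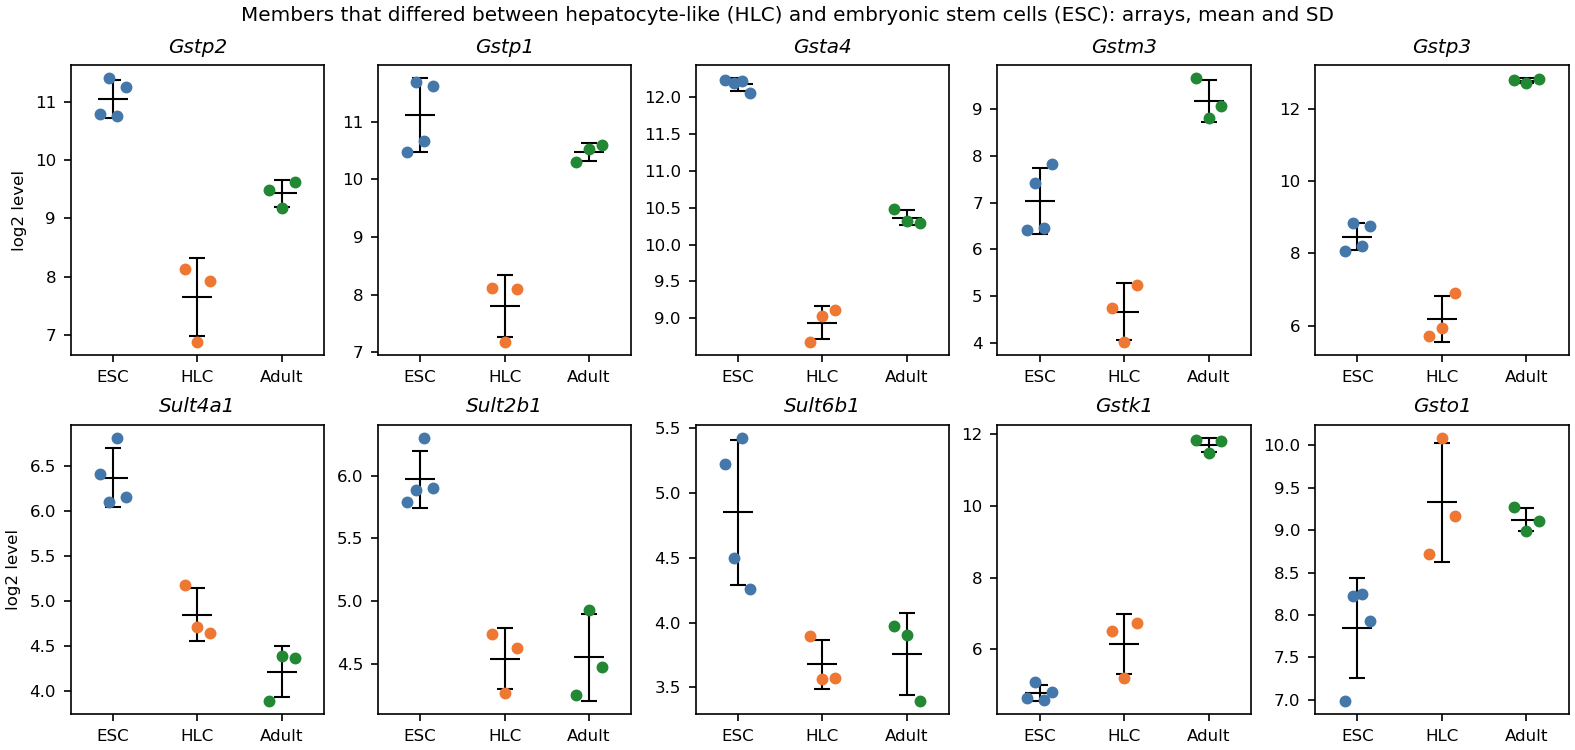
Each panel shows a member called between hepatocyte-like cells (HLC) and embryonic stem cells (ESC), with 1 point per array, the mean and the standard deviation, and each panel has its own log2 axis that does not start at 0. In the 8 members that fell, the 3 hepatocyte-like points lie below the 4 stem cell points, and in Gstk1 and Gsto1 they lie above them.

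The panels of single members show that the arrays of the compared kinds did not overlap in any of the 10 members called. The members were called on these same arrays, so the gap describes the calls and is not separate evidence for them. The share of all called genes with such a gap is not given, so it is not set against a background. Without hepatocyte-like replicate 3, the same 10 members were called in the same direction (Gstk1 at 1.06, adjusted p = 0.0212, and Gstp2 at -3.53), and 3 more passed: Gstm2, Gstt2 and Ugt2b34. Theta class genes rose in adult hepatocytes in 3 of 4 cases and in hepatocyte-like cells in 0. Gstt1, which acts on small halogenated hydrocarbons, read 5.49, 5.38, 5.35 and 5.97 in stem cells, 5.58, 5.35 and 5.81 in hepatocyte-like cells and 10.32, 10.30 and 10.29 in adult hepatocytes (4.75 ± 0.18, adjusted p = 2.96e-10). Gstt2 read 4.98, 5.65, 5.22 and 5.61, then 4.42, 3.88 and 5.17, and then 8.59, 8.81 and 8.55 (3.29 ± 0.27, adjusted p = 4.85e-07). Gstt3 read 6.14, 5.87, 6.20 and 5.46, then 5.83, 6.44 and 6.67, and then 9.49, 9.17 and 9.56 (3.49 ± 0.23, adjusted p = 6.92e-08). In the 3 genes the cultured kinds overlapped and adult arrays stood apart. Gstt4, which lies between Gstt1 and Gstt2 on chromosome 10, was called in no comparison, with group means of 4.55 to 4.93.

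Among the 36 members that rose in adult hepatocytes, the hepatocyte-like replicates differed. Replicate 3 read above all 4 stem cell arrays in 16 of them, replicate 2 in 7 and replicate 1 in 3. The median difference from the stem cell mean was -0.04, -0.12 and 0.18 in replicates 1, 2 and 3, and replicate 3 was the highest of the 3 arrays in 22 members. The same counts over all genes were not made, so whether this order is particular to the members was not tested. The largest excess was that of Gstk1 in replicate 1 (1.72), Gsto1 in replicate 2 (2.24) and Sult3a2 in replicate 3 (2.38). In Ugt and Sult genes the medians of replicate 3 were 0.42 and 0.34 while in Gst genes it was -0.27. Replicate 3 also had the highest means of hepatocyte markers (6.86, against 5.32 and 5.79) and of stem cell markers, and their part in these levels was not tested. Without replicate 3, all 39 members lower in hepatocyte-like than in adult cells were still called lower.

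**Figure D4:**
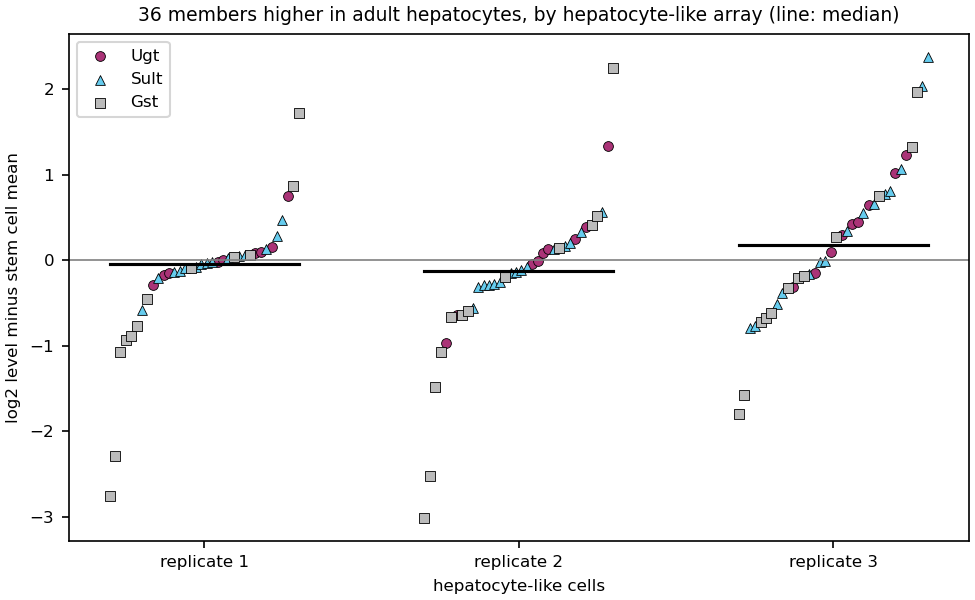
Each point is a member that rose in adult hepatocytes, plotted as its log2 level on a hepatocyte-like array minus its stem cell mean, sorted within each array, with the median as a line. Replicate 3 reaches 2.38 for Sult3a2 and has a median of 0.18, against -0.04 and -0.12 in replicates 1 and 2, and the lowest point of every replicate is a Gst gene (squares), as is the highest in replicates 1 and 2 (Gstk1, 1.72, and Gsto1, 2.24).

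Some genes that supply the cosubstrates of Ugt and Sult enzymes rose in hepatocyte-like cells. Of all genes tested, 8.61% rose and 7.35% fell there, and 11.0% rose and 15.6% fell in adult hepatocytes. Of 4 genes for UDP-glucuronate supply and glucuronide cleavage 2 rose in hepatocyte-like cells and 2 in adult hepatocytes: Ugp2, which makes UDP-glucose (1.52 ± 0.31 and 3.20 ± 0.31), and Slc35d1, which carries UDP-glucuronate into the endoplasmic reticulum (1.25 ± 0.26 and 2.95 ± 0.26). Of 10 measured genes for PAPS supply, sulfate uptake and sulfate ester cleavage 4 rose in hepatocyte-like cells and 4 in adult hepatocytes, and 0 fell. Papss2, a PAPS synthase, led both with 3.01 ± 0.17 and 6.99 ± 0.17. It read 4.84, 5.28, 4.98 and 5.40 in stem cells, 8.10, 8.32 and 7.97 in hepatocyte-like cells and 12.09, 12.19 and 12.07 in adult hepatocytes, 3 levels with no overlap. The sulfate carrier Slc26a2 rose in hepatocyte-like cells (1.71 ± 0.22) and the carrier Slc26a1 in adult hepatocytes (6.02 ± 0.18).

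**Figure D5:**
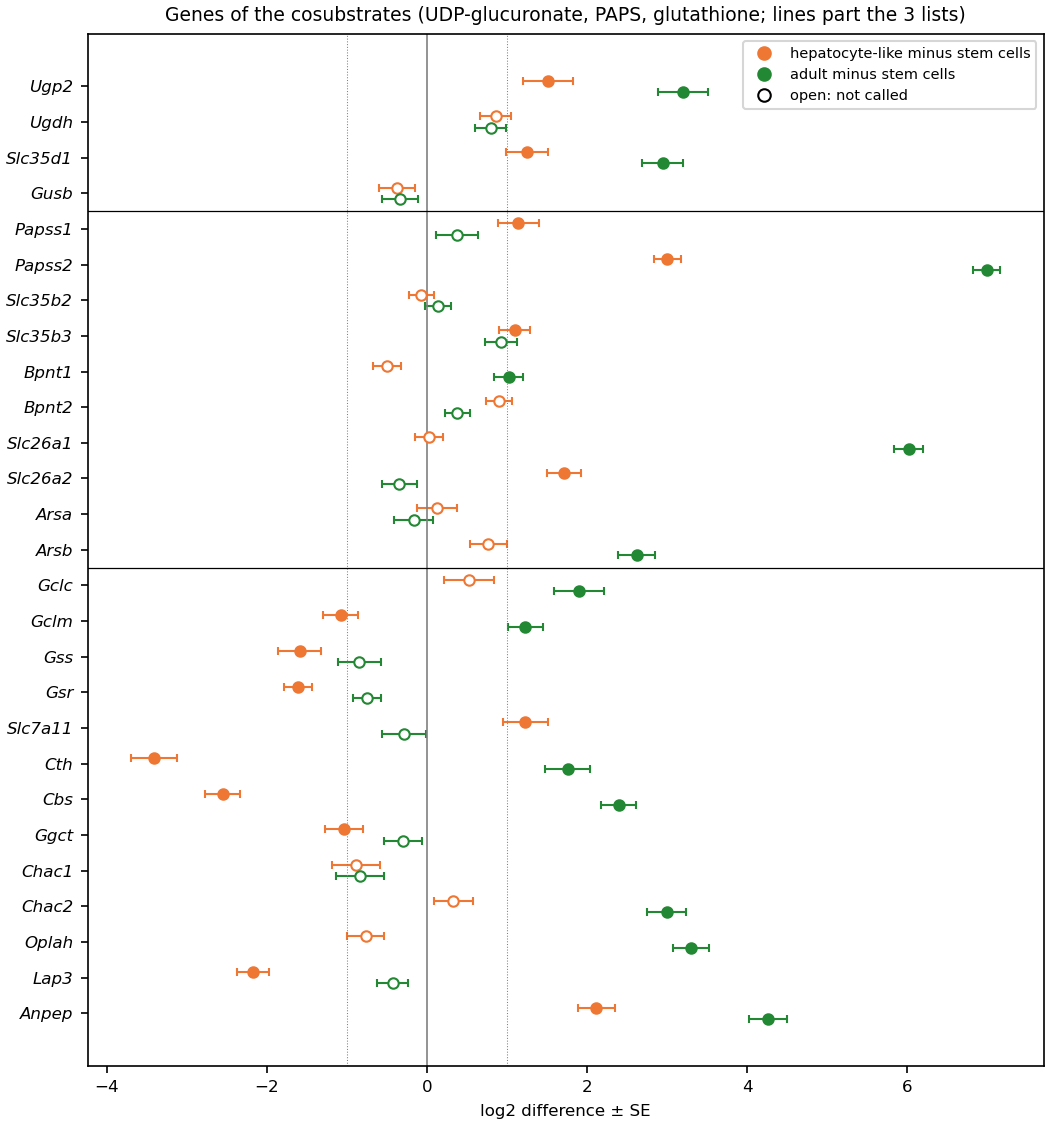
Points give the log2 difference from embryonic stem cells with its standard error for genes that supply or recycle the cosubstrates of Ugt (top), Sult (middle) and Gst enzymes (bottom), in hepatocyte-like cells (orange) and adult hepatocytes (green), and filled points were called. Papss2 is far right of 0 in both, and Cth and Cbs are left of 0 in hepatocyte-like cells and right of 0 in adult hepatocytes.

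The plot of cosubstrate genes shows more falls than rises in the glutathione list in hepatocyte-like cells. Of 13 measured genes for glutathione synthesis, recycling and breakdown, 2 rose (background 8.61%) and 7 fell (background 7.35%) there. In adult hepatocytes 7 rose (background 11.0%) and 0 fell (background 15.6%). Cth and Cbs, which make cysteine from homocysteine, fell by 3.41 ± 0.28 and by 2.55 ± 0.22 in hepatocyte-like cells and rose by 1.76 ± 0.28 and 2.40 ± 0.22 in adult hepatocytes. Cth read 8.43, 9.19, 9.26 and 9.06 in stem cells, 5.85, 4.82 and 6.05 in hepatocyte-like cells and 10.82, 10.58 and 10.83 in adult hepatocytes. Lap3, a peptidase, fell by 2.17 ± 0.20, Gsr, glutathione reductase, fell by 1.61 ± 0.18, and Gss, glutathione synthetase, fell by 1.59 ± 0.27 in hepatocyte-like cells, while the peptidase Anpep (2.12 ± 0.23) and the cystine carrier Slc7a11 (1.23 ± 0.28) rose. In adult hepatocytes the largest rises of the list were those of Anpep (4.26 ± 0.23), Oplah (3.3 ± 0.23) and Chac2 (3.00 ± 0.24).

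Of 13 measured sensors and regulators of conjugation, 8 rose in adult hepatocytes and 1 in hepatocyte-like cells, the latter near the share of all genes. Of all genes tested, 11.0% rose and 15.6% fell in adult hepatocytes, and 8.61% and 7.35% in hepatocyte-like cells, the background for every list here. The adult rises included the liver factors Cebpa (5.05 ± 0.23) and Ppara (4.84 ± 0.21) and the bile acid receptor Nr1h4 (4.98 ± 0.16). The receptors Nr1i3 (CAR) and Nr1i2 (PXR), which switch on Ugt, Sult and Gst genes in response to drugs, rose by 4.41 ± 0.18 and 4.35 ± 0.16. Nr1i2 read 8.75 to 9.08 in adult hepatocytes and 4.32 to 4.57 in hepatocyte-like cells. The rise in hepatocyte-like cells was that of the dioxin receptor Ahr (1.21 ± 0.28). Of 9 NRF2 targets outside the families, some of them also in the glutathione list, 1 rose and 3 fell in hepatocyte-like cells, where the quinone reductase Nqo1 fell by 3.52 ± 0.20, and 3 rose and 2 fell in adult hepatocytes, where Nqo1 fell by 2.98 ± 0.20. Of 9 efflux pumps that export conjugates, 4 rose and 4 fell in adult hepatocytes, led by Abcc2 (6.27 ± 0.21) and Abcc3 (5.63 ± 0.19), and 2 rose and 1 fell in hepatocyte-like cells, where Abcb1b rose by 1.82 ± 0.39 and Abcc4 fell by 1.68 ± 0.25. Of 11 other enzymes with a glutathione transferase fold or of the membrane-bound kind, 1 rose and 5 fell in adult hepatocytes. In hepatocyte-like cells 1 rose and 1 fell, near the background shares. The membrane enzyme Mgst1 rose in adult hepatocytes (4.86 ± 0.21). Clic1 rose in hepatocyte-like cells (2.22 ± 0.22) and fell by 1.66 ± 0.22 in adult hepatocytes. Alox5ap fell in both, by 1.47 ± 0.24 and by 1.52 ± 0.24, and Eef1g, Vars and Gstcd fell in adult hepatocytes.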

How the data were processed

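Total RNA of 10 samples was hybridised to Affymetrix arrays, per the labels' protocols. The deposited values are the authors' normalized log2 expression, 1 table of 41345 transcript clusters, which was used as it is. That the scale is log2 was read from the range of the values (1.27 to 13.58) and array medians of 4.91 to 5.07. The tools R 3.3.1, Transcriptome Analysis Console, oligo 1.38.0 and RMA are listed per the submitters' processing notes, with no role for each, and the genome build is not given in the sources used here. Scanner files were not used here, so no cluster could be tested against its background, and precision is limited by how few arrays there are.

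The platform annotation left 16010 clusters without a symbol and gave 23521 a single one and 1814 more than 1. With the brightest cluster per symbol, 22180 genes were tested in 1 limma fit of group means (lmFit and eBayes of limma 3.58.1 under R 4.3.3, 2-sided tests, 7 residual and 5.34 prior degrees of freedom). The fit was tested on simulated data. All 50 members matched RefSeq by Entrez identifier and 0 symbols differed. Promoters and gene order came from RefSeq tables of GRCm38.p6, motifs were searched as exact letters, and a planned comparison of proteins was not made. Sequences were aligned with Biopython 1.88, and figures drawn with Python 3.11.15 and matplotlib 3.10.9.

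Every array is given for 33 members: those called in hepatocyte-like against stem cells, per family and direction the 5 largest called differences in adult against stem cells, the 3 largest further ones in hepatocyte-like against adult cells, and those whose adult arrays span 2 or more. The rule also held members called nowhere with all group means of at least 8, of which there were 0. From other lists up to 3 genes per direction are named, and Gsr, Gss, Nr1i2, Nr1i3, Nanog, Alox5ap, Gstcd, Xist and the Y-linked genes were added after their values were seen. The members, lists and tests were chosen with earlier results of these data known. Alternatives were quantile normalization again, median centring, cyclic loess, dim genes left out, the mean over clusters, every cluster, array weights, a trended robust variance, a fit of only the compared groups, a replicate block, each array left out, and other thresholds.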

Additional observations from a re-analysis of the deposited data

Results flagged for a closer look

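In embryonic stem cells, Sult2a2 read 3.69 in replicate 2 and 2.69, 2.70 and 2.85 on the other arrays, and Ugt2b37 read 3.62 in replicate 3 and 3.10, 3.15 and 3.17 on the others. In each gene 1 array lay farther from the rest than Dixon's criterion allows, which happened in 2 of 50 members tested. Chance gives about 1 in 20 groups, and groups of 3 arrays were not tested.

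Clusters that carry several gene symbols are outside the members and were tested in a separate limma fit over all 41345 clusters. Their adjusted p-values are over those clusters. Of the 9 with a symbol of these families 5 were called higher and 1 lower in adult hepatocytes than in stem cells. The share of all clusters called in that fit was not computed. Among the 22180 genes of the main fit it was 11.0% higher and 15.6% lower. The cluster of 8 Ugt1a genes, which glucuronidate bilirubin, phenols and hormones from a shared locus, was higher by 4.64 ± 0.23 (log2, ± SE), at 8.58, 8.88 and 9.07 on the adult arrays and 3.96 to 4.46 on the stem cell arrays. A cluster of 5 Ugt1a genes was higher by 3.73 ± 0.47, with adult replicate 1 at 6.92 and replicates 2 and 3 at 9.22 and 9.25. The cluster of Gstz1 and Pomt2 was higher by 3.84 ± 0.14, that of Gsta1, Gsta2, Gm3776 and Gm10639 by 1.51 ± 0.19, and that of Gstm5 and 4933431E20Rik by 1.01 ± 0.27. None of these 5 was called between hepatocyte-like and stem cells (-0.05 to 0.43). The cluster of Gstp1 and Gstp2 was lower than in stem cells in both other kinds, by -1.15 ± 0.24 in adult hepatocytes (adjusted p = 0.0035, limma) and by -3.44 ± 0.24 in hepatocyte-like cells (adjusted p = 3.16e-06), where it was the 1 cluster called. The other clusters of Gsta1 and Gsta2 (0.71 and -0.07) and that of Ugt2a1 and Ugt2a2 (-0.0036) were not called in adult hepatocytes. Which of its genes gives the signal of such a cluster cannot be told apart.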

How the results depend on the processing

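Between hepatocyte-like and stem cells, 10 members were called, 2 higher and 8 lower. With no minimum difference 16 were called, 13 of them lower. With a minimum of 2 on the log2 scale 5 were called, 0 higher and 5 lower, and 1 member was lower in adult hepatocytes than in stem cells, where 5 were at the minimum of 1. With no minimum 1 member was higher in hepatocyte-like than in adult cells (Sult4a1, 0.63), where 0 were otherwise. Leaving out each array in turn gave 10 to 13 called members, 2 to 3 higher and 8 to 10 lower, for hepatocyte-like against stem cells. It gave 39 to 41, 35 to 36 higher and 4 to 5 lower, for adult against stem cells, and 39 each time for hepatocyte-like against adult cells. Same-numbered samples were treated as unpaired, since the labels give no pairing. The correlation of their deviations ran from -0.19 to 0.14, and 3 of 9 arrays were closest to their own number. With so few arrays these values cannot exclude a shared origin. With the replicate number as a block 10, 41 and 39 members were called, as without it.

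Over 20 alternatives fitted again, 2973 values of single members were computed. Direction turned in 0 of those where the member was called in the main fit or in the alternative. Changes of sign in members called in neither were not counted. In 5 a call was lost, Sult6b1 in both comparisons with stem cells (-0.98 to -0.90) and Gsto1 in adult hepatocytes (0.99), and in 8 a call was gained (Gstm2, Gstt2 and Ugt2b34). Leaving out dim genes removed 9 members from the test. For the 9 members under 5.5 in every group, 3 of them called (Sult1e1, Sult2a4 and Sult6b1), there is no background call. Whether their signals lie above background was therefore not tested.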

Other observations

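Stem cell arrays differed among themselves in the Gst family. Replicates 2 and 4 both read above replicates 1 and 3 in 11 of 18 Gst genes, 5 of 21 Sult genes and 2 of 11 Ugt genes, and in 28.3% of all genes tested. The 11 hold all 3 pi genes, 5 of the 6 mu genes, Gstt2, Gstt4 and Gstk1, many of them neighbours with similar sequence. The 4 arrays carry the same labels, and the order was noticed in these values, so it is a description with no test.

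Adult arrays differed as well. Replicate 1 was the highest of the 3 in 23 of the 36 members that rose in adult hepatocytes, replicate 2 in 4 and replicate 3 in 9, with a median span of 0.50 between the highest and the lowest array. This order was not counted over all genes, so whether it is particular to the members was not tested. Spans of at least 1 occurred in 4 members, Sult1e1 (2.0), Sult2a5 (1.47), Ugt2b37 (1.47) and Sult2a8 (1.01).

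Of 11 further conjugating and mercapturate enzymes 7 rose in adult hepatocytes (background 11.0%) and 0 fell (background 15.6%). The largest rises were those of Baat, which joins bile acids to taurine or glycine (5.93 ± 0.17), the methyltransferase Inmt (5.85 ± 0.18) and the glycine acyltransferase Glyat (4.61 ± 0.24). In hepatocyte-like cells 1 rose (background 8.61%), the arylamine acetyltransferase Nat2, by 1.25 ± 0.24. There 1 fell (background 7.35%), the aminoacylase Acy1, by 1.48 ± 0.17.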
